A study of Homo sapiens with 6 samples.

Results

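The 10 genes described are CIITA, CD74, HLA-DRA, HLA-DRB1, HLA-DPA1, HLA-DPB1, HLA-DMA, HLA-DMB, HLA-DOA and CTSS, taken by symbol from the 58381 genes of the deposited count files. They are listed by name as genes of the MHC class II route. Polyadenylated RNA was sequenced from 786-0, a human clear cell renal cell carcinoma line labelled SETD2 KO in every library, so the knockout of the H3K36 methyltransferase SETD2 is common to all groups. Cells received daily doses for 3 days of DMSO (the vehicle), 100 nM decitabine or 300 nM decitabine, a cytidine analogue that traps DNA methyltransferases. The medium was renewed on day 4 and RNA was taken from cells of day 5, with 2 libraries in each of the 3 groups and 6 in all. Nothing in the labels tells separate cultures from repeat libraries within a group, or a single knockout clone from a pool, so p-values measure only the spread between these libraries.

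MHC class II molecules are pairs of an alpha and a beta chain that show peptides from endosomes to CD4+ T cells. CIITA, the class II transactivator, binds no DNA itself and acts through the RFX, NF-Y and CREB factors that sit on the X and Y boxes of class II promoters. CD74, the invariant chain, occupies the peptide groove of new class II molecules until cathepsin S (CTSS) trims it, and HLA-DM then exchanges the remaining CD74 fragment for peptide, with HLA-DO as its inhibitor. These genes are active by default in B cells and myeloid cells, and in most other cells, kidney epithelium included, they are induced by interferon-gamma through CIITA.

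Promoters of some of the genes that rose with decitabine are given first. The Y box and the CpG sites, where DNA methylation is placed, lie in promoters. RefSeq promoter windows of 300 bases (250 before the annotated start to 50 after it, GRCh38.p14) were matched for 7 of the 10 genes, with none used for CIITA, HLA-DRA and CTSS. Windows of CD74 (chr5:150412861-150413160, minus strand), HLA-DMA (chr6:32953048-32953347, minus strand), HLA-DMB (chr6:32940979-32941278, minus strand) and HLA-DRB1 (chr6:32589799-32590098, minus strand) are printed 5′ to 3′ along the gene. Capitals mark the Y-box core ATTGG on either strand (CCAAT when it lies on the other strand) and the run TGATGA on either strand, a stretch at the X box of several class II promoters that was chosen after the windows had been read.
CD74: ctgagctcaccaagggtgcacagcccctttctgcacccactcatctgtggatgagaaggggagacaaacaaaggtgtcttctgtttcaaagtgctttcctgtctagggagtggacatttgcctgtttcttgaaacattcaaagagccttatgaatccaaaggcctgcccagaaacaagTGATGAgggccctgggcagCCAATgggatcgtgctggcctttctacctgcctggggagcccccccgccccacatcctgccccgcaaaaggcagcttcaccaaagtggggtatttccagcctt
HLA-DMA: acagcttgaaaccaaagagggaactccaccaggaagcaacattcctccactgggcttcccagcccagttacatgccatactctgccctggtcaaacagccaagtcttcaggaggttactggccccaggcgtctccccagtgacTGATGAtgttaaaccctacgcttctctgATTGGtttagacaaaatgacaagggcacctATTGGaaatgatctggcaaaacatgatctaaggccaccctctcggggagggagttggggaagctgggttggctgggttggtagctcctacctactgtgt
HLA-DMB: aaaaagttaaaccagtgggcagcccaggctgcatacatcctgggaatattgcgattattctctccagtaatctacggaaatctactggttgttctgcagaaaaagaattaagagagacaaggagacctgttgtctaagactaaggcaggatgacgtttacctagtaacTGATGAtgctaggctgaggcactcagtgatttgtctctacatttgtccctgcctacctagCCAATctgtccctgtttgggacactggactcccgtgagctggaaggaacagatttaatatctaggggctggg
HLA-DRB1: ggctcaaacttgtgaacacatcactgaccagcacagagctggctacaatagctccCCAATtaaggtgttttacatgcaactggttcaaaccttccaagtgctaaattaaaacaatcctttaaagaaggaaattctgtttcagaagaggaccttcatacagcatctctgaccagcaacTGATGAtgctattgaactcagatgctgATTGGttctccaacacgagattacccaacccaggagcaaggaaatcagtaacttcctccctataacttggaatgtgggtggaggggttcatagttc

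All 4 printed windows held both motifs, with TGATGA upstream of the nearest Y-box core. No window of the other matched genes held both. The printed genes are thus those with both motifs, and HLA-DPA1 and HLA-DPB1, which also rose with decitabine, are not printed. In CD74 the first base of TGATGA lay at -72 and that of the Y-box core, reversed as CCAAT, at -53 from the annotated start. In HLA-DMA the run lay at -107 with Y-box cores at -79 and -49. In HLA-DMB it lay at -82 with a reversed core at -22. In HLA-DRB1 it lay at -73 with cores at -46 and -195, the last reversed. Whether any of these cores acts as a Y box was not tested. HLA-DOA held a Y-box core and HLA-DPB1 held 2, without TGATGA. The upstream window of HLA-DPA1 (chr6:33080699-33080998, minus strand) held neither motif, and its downstream window (chr6:33073600-33073899, minus strand) held TGATGA at 32 bases after the start. Among all 35116 RefSeq windows of this length, 34.6% held ATTGG, 10.9% held TGATGA and 4.11% held both on either strand. Since TGATGA was chosen from the windows of these genes, the 4 printed windows cannot be tested against these shares. The number of CpG sites was low in nearly all of these windows, with 3 in CD74, 3 in HLA-DMA, 4 in HLA-DMB, 1 in HLA-DRB1, 2 in HLA-DPB1 and 6 in HLA-DOA. HLA-DPA1 had 27 in its upstream window and 4 in its downstream one. That upstream window lies within the annotated span of HLA-DPB1, which is on the opposite strand. Which of these windows serves as a promoter of HLA-DPA1 in these cells was not tested. The median over all windows was 14, with quartiles of 4 and 28, and 36.8% of all windows held 6 or fewer. DNA methylation at these sites is not analysed here.

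**Figure D1:**
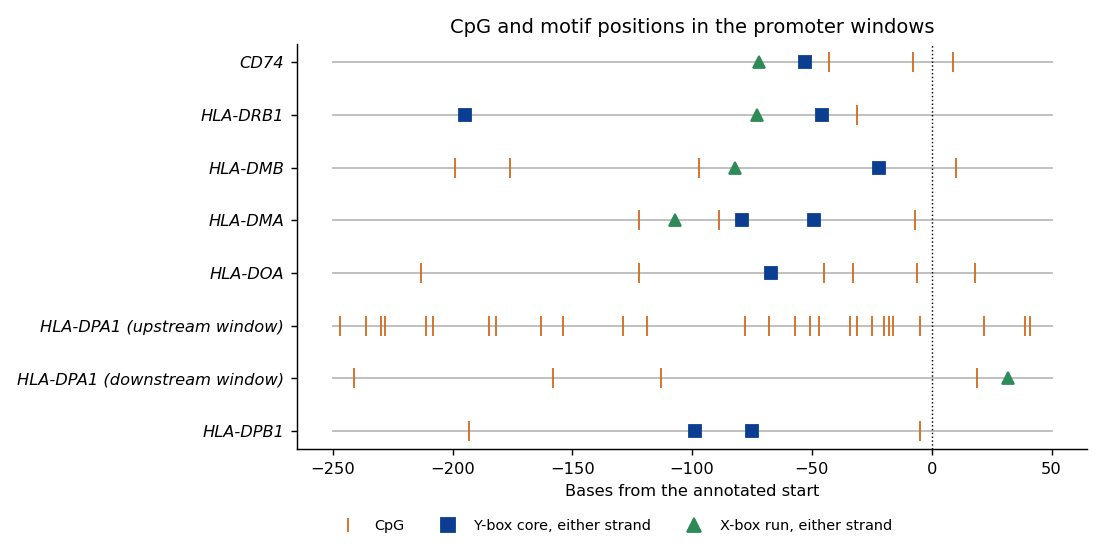
Positions of CpG sites (ticks), the Y-box core ATTGG (squares) and the run TGATGA (triangles), both on either strand, in the RefSeq promoter windows, by distance in bases from the annotated start (dotted line). Windows other than the upstream one of HLA-DPA1, which holds 27 CpG sites and lies within the span of HLA-DPB1, hold 1 to 6.

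Counts are reads assigned to each gene by the authors, and levels are CPM, counts scaled to library size with TMM factors. Libraries held 89159112 to 96646427 assigned reads. A floor of 3 reads, set for a count of 0 with reads taken as independent, corresponds to 0.0306 to 0.0362 CPM. SETD2 itself was at 77.9 and 81.2 CPM with DMSO, 39.8 and 49.1 CPM at 100 nM, and 16.4 and 21.7 CPM at 300 nM. No library of a SETD2 wild-type line is analysed here, so the knockout label was not checked by this level. The 5 markers of the labelled line were all present, at group means of 80.3 to 254 CPM for PAX8, 139 to 205 for EPAS1, 1820 to 2230 for VIM, 105 to 511 for KRT18 and 81.7 to 112 for NNMT. PAX8 fell with dose, with means of 254, 158 and 80.3 CPM at DMSO, 100 nM and 300 nM. KRT18 rose, with means of 105, 206 and 511 CPM, and EPAS1, VIM and NNMT moved less. Differences were tested with edgeR's quasi-likelihood test over the 23160 genes that passed a filter on low counts, in a single fit of all 6 libraries, and a gene is called higher or lower at a Benjamini-Hochberg adjusted p under 0.05.

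CD74, CTSS, HLA-DMA, HLA-DRB1 and HLA-DPA1 rose at 100 nM against DMSO, and at 300 nM HLA-DPB1 and HLA-DMB rose with them. CIITA differed from DMSO at neither dose by the test, and HLA-DRA did not pass it either. Of the 9 genes that passed the filter, 5 were called higher and 0 lower at 100 nM, where 24.0% of all tested genes were called higher and 18.7% lower. At 300 nM 7 were called higher and 0 lower, beside 34.8% and 31.1% of all tested genes. At 300 nM against 100 nM, 2 were called higher (CD74, HLA-DMB) and 2 lower (CIITA, CTSS), beside 20.0% and 23.4% of all tested genes. In that comparison both shares were close to those of all tested genes. The median log2 fold change of the 9 was 1.55 at 100 nM and 1.92 at 300 nM against DMSO, where that of all tested genes was 0.025 and 0.046. HLA-DRB1 and HLA-DPB1 passed the filter through their decitabine libraries alone, so they had to differ to enter these counts. HLA-DOA was not tested. In bulk RNA, more cells that express a gene and more RNA per cell cannot be told apart.

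**Figure D2:**
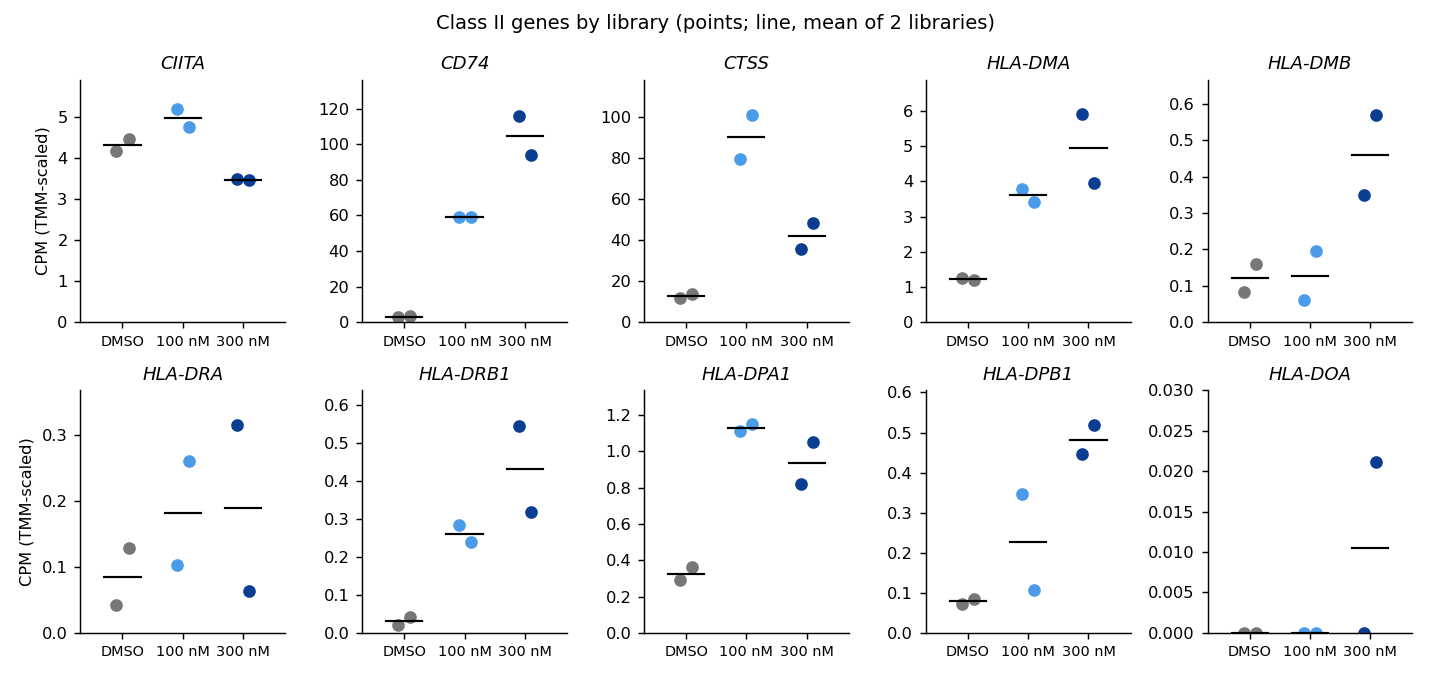
Level of each gene in CPM (y axis, a separate linear scale from 0 in each panel) in each of the 6 libraries (points) by dose, with the mean of the 2 libraries as a line. CIITA stays between 3.46 and 5.19 CPM, while CD74 lies at 59.1 CPM in both 100 nM libraries and at 2.7 and 3.17 CPM in the DMSO libraries.

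CIITA (ENSG00000179583.19, GRCh38 chr16:10866222-10943021), the master regulator of the group, was at 4.18 and 4.46 CPM with DMSO, 5.19 and 4.75 CPM at 100 nM, and 3.49 and 3.46 CPM at 300 nM. These levels rest on 289 to 509 reads per library, and the 3 groups did not overlap. Against DMSO, the log2 fold change of CIITA was 0.20 ± 0.17 (SE) at 100 nM (edgeR adjusted p = 0.36) and -0.31 ± 0.17 at 300 nM (edgeR adjusted p = 0.12). Neither passed the threshold, which does not show that the level was the same. At 300 nM CIITA was lower than at 100 nM by a log2 fold change of -0.51 ± 0.17 (edgeR adjusted p = 0.021), a call that was lost with DESeq2 (-0.44, adjusted p = 0.061), with offsets for gene length and GC content (-0.34, edgeR adjusted p = 0.074), without the first 100 nM library (-0.47, edgeR adjusted p = 0.10) and without the first 300 nM library (-0.52, edgeR adjusted p = 0.052). With the same offsets CIITA was called higher at 100 nM against DMSO (0.41, edgeR adjusted p = 0.025), and the value at 300 nM against DMSO turned to 0.07. Reads over 23.4% of the exon bases of CIITA fall on other annotated genes and were left out by the authors' counting, among them 11.6% shared with DEXI on the opposite strand, which fell at both doses (log2 fold change -0.70 at 100 nM and -1.03 at 300 nM).

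CD74 (ENSG00000019582.14, chr5:150401637-150412929) had the largest fitted log2 fold change against DMSO of the 9 tested genes at either dose, though not apart from HLA-DRB1, whose counting intervals, given with that gene, include the folds of CD74. Its level was 2.7 and 3.17 CPM with DMSO, 59.1 and 59.1 CPM at 100 nM, and 116 and 93.7 CPM at 300 nM, from 260 and 298, 5795 and 5465, and 9624 and 8870 reads. Every decitabine library stood far above both DMSO libraries, and both 300 nM libraries stood above both 100 nM libraries. Mean levels were 20.1-fold higher at 100 nM than with DMSO (log2 fold change 4.33 ± 0.15, edgeR adjusted p = 3.9e-13) and 35.7-fold higher at 300 nM than with DMSO (5.16 ± 0.15, edgeR adjusted p = 3.5e-14). The further step at 300 nM against 100 nM was 1.78-fold (0.83 ± 0.12, edgeR adjusted p = 4.9e-05). With offsets for length and GC content the log2 fold change at 300 nM against DMSO was 4.31, and no exon base of CD74 is shared with another annotated gene.

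CTSS (ENSG00000163131.10, chr1:150730196-150765957), the protease that trims CD74 in endosomes, had a different order of doses. It was at 11.7 and 13.9 CPM with DMSO, 79.3 and 101 CPM at 100 nM, and 35.6 and 48.3 CPM at 300 nM. The 3 groups were apart from each other, with the 100 nM libraries highest. CTSS rose at 100 nM by a log2 fold change of 2.82 ± 0.16 (edgeR adjusted p = 3.3e-10) and at 300 nM by 1.71 ± 0.16 (edgeR adjusted p = 4.8e-08), both against DMSO. At 300 nM it was lower than at 100 nM, with a log2 fold change of -1.11 ± 0.15 (edgeR adjusted p = 2.2e-05). Offsets for length and GC content moved the value at 300 nM against DMSO to 2.73 and that at 300 nM against 100 nM to -0.36, with both calls kept. CTSS is thus on the opposite side from CD74 at 300 nM against 100 nM, while both were called higher at each dose against DMSO.

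HLA-DMA and HLA-DMB encode the alpha and beta chains of HLA-DM, which edits the peptides bound by class II molecules. HLA-DMA (ENSG00000204257.14, chr6:32948613-32969094) was at 1.26 and 1.21 CPM with DMSO, 3.79 and 3.43 CPM at 100 nM, and 5.92 and 3.97 CPM at 300 nM. All decitabine libraries lay above both DMSO libraries, and the 300 nM libraries differed from each other more than the others did. HLA-DMA rose by a log2 fold change of 1.55 ± 0.22 at 100 nM (edgeR adjusted p = 2.2e-05) and 2.00 ± 0.22 at 300 nM (edgeR adjusted p = 4.8e-07) against DMSO. With offsets for length and GC content the value at 300 nM against DMSO was 1.35, still called. At 300 nM against 100 nM the value was 0.45 ± 0.21 (edgeR adjusted p = 0.087). That difference was called with DESeq2 size factors in edgeR (0.53, adjusted p = 0.042) and without the second 300 nM library (0.71, edgeR adjusted p = 0.0092).

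HLA-DMB (ENSG00000242574.8, chr6:32934629-32941070) was low throughout, with 8 and 15 reads in the DMSO libraries, 6 and 18 at 100 nM, and 29 and 54 at 300 nM. These are 0.0832 and 0.16 CPM with DMSO, 0.0611 and 0.195 CPM at 100 nM, and 0.35 and 0.57 CPM at 300 nM. The DMSO and 100 nM libraries overlapped, and both 300 nM libraries were above them. HLA-DMB had a log2 fold change of 0.07 ± 0.72 at 100 nM against DMSO (edgeR adjusted p = 0.95) and rose by 1.92 ± 0.68 at 300 nM against DMSO (edgeR adjusted p = 0.02). At 300 nM HLA-DMB was also higher than at 100 nM, by 1.85 ± 0.67 (edgeR adjusted p = 0.035). The call at 300 nM against DMSO was lost without the first DMSO library (1.52, edgeR adjusted p = 0.11) or the second 300 nM library (1.52, edgeR adjusted p = 0.15). That at 300 nM against 100 nM was lost without the first 100 nM library (1.22, edgeR adjusted p = 0.23) or the second 300 nM library (1.45, edgeR adjusted p = 0.20), and was 2.88 without the second 100 nM library. On the deposited log2 matrix both differences were smaller, at 1.18 and 1.2, and past the threshold in limma. Of the exon bases, 9.04% in HLA-DMA and 9.41% in HLA-DMB are shared with another annotated gene and were not counted. The summed level of both chains was 1.34 and 1.37 CPM with DMSO, 3.85 and 3.63 CPM at 100 nM, and 6.27 and 4.54 CPM at 300 nM, nearly all of it HLA-DMA.

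The chains that bind peptide at the cell surface had few reads, and 3 of the 4 (all but HLA-DPA1) had at most 49 reads in any library. The summed level of HLA-DRA, HLA-DRB1, HLA-DPA1 and HLA-DPB1 was 0.426 and 0.617 CPM with DMSO, 1.84 and 1.75 CPM at 100 nM, and 2.13 and 1.94 CPM at 300 nM. HLA-DRA (ENSG00000204287.13, chr6:32439842-32445046), the alpha chain of HLA-DR, had 4 and 12 reads in the DMSO libraries, 10 and 24 at 100 nM, and 26 and 6 at 300 nM. Its groups overlapped, at 0.0416 and 0.128 CPM with DMSO, 0.102 and 0.26 CPM at 100 nM, and 0.314 and 0.0634 CPM at 300 nM. Against DMSO, HLA-DRA had a log2 fold change of 1.08 ± 0.92 at 100 nM (edgeR adjusted p = 0.37) and 1.13 ± 0.92 at 300 nM (edgeR adjusted p = 0.29), so a difference was not detectable at this depth. Without 1 library the value at 100 nM ran from 0.27 (without the second 100 nM library) to 2.08 (without the second DMSO library), and that at 300 nM from -0.40 (without the first 300 nM library) to 2.12 (without the second DMSO library).

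HLA-DRB1 (ENSG00000196126.11, chr6:32578769-32589848), the beta chain of HLA-DR, had 2 and 4 reads in the DMSO libraries, 28 and 22 at 100 nM, and 45 and 30 at 300 nM. Its level was 0.0208 and 0.0426 CPM with DMSO, 0.285 and 0.238 CPM at 100 nM, and 0.544 and 0.317 CPM at 300 nM, and the DMSO libraries were below all others. HLA-DRB1 rose by a log2 fold change of 3.0 ± 0.75 at 100 nM (edgeR adjusted p = 0.0038) and 3.71 ± 0.74 at 300 nM (edgeR adjusted p = 0.00031). The 95% counting interval of the ratio to DMSO was 3.56 to 23.7 at 100 nM and 5.87 to 37.7 at 300 nM. Both intervals are too narrow, since they take reads as independent and mates were counted separately. On the deposited log2 matrix, whose scale compresses low counts, the same differences were 1.30 and 1.80, both past the threshold in limma, and with offsets for length and GC content that at 300 nM was 2.84. Reads of HLA-DRB1 that fit another DRB gene equally well were left out by the authors' counting, and those that nearly fit carry an uncertain assignment.

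HLA-DPA1 (ENSG00000231389.7, chr6:33064569-33080775), the alpha chain of HLA-DP, had the most reads of the 4 chains over its 5.75 kb of exon, at 0.291 and 0.362 CPM with DMSO, 1.11 and 1.15 CPM at 100 nM, and 0.822 and 1.05 CPM at 300 nM. All decitabine libraries were above both DMSO libraries. HLA-DPA1 rose by a log2 fold change of 1.79 ± 0.34 at 100 nM (edgeR adjusted p = 0.00039) and 1.52 ± 0.34 at 300 nM (edgeR adjusted p = 0.00093). HLA-DPB1 (ENSG00000223865.10, chr6:33075926-33087201), the beta chain of HLA-DP, had 7 and 8 reads in the DMSO libraries, 34 and 10 at 100 nM, and 37 and 49 at 300 nM. Its level was 0.0728 and 0.0851 CPM with DMSO, 0.346 and 0.108 CPM at 100 nM, and 0.447 and 0.518 CPM at 300 nM, and the 100 nM libraries were far from each other. HLA-DPB1 rose at 300 nM by 2.59 ± 0.67 (edgeR adjusted p = 0.0027), a difference of 1.5 on the deposited log2 matrix, also past the threshold. At 100 nM the value was 1.52 ± 0.69 (edgeR adjusted p = 0.087), and without 1 of the 100 nM libraries it ran from 0.47 (edgeR adjusted p = 0.75, without the first) to 2.12 (edgeR adjusted p = 0.02, without the second). At 300 nM against 100 nM none of the 4 chains passed the test, with log2 fold changes of 0.05 for HLA-DRA, 0.71 for HLA-DRB1, -0.27 for HLA-DPA1 and 1.08 for HLA-DPB1, the last with a range of 0.47 to 2.12 when 1 library was left out. HLA-DOA (ENSG00000204252.13, chr6:33004178-33009612), the alpha chain of the HLA-DM inhibitor HLA-DO, had 0 reads in 5 libraries and 2 in the second 300 nM library.

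**Figure D3:**
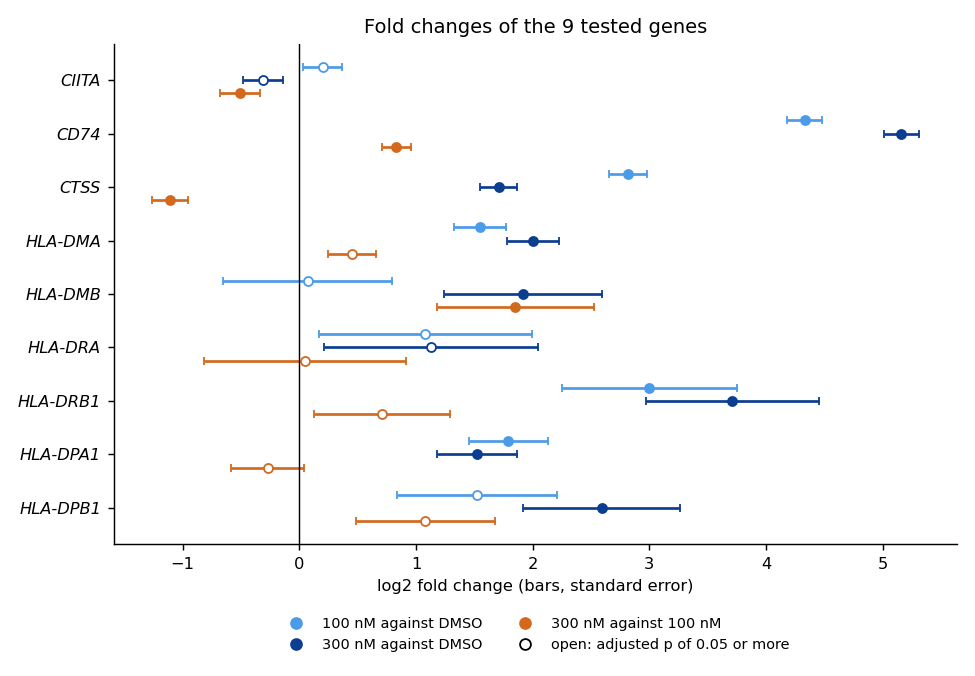
Log2 fold changes (x axis) with their standard errors (bars) from edgeR for the 9 tested genes at 100 nM against DMSO, 300 nM against DMSO and 300 nM against 100 nM. Filled points passed an adjusted p of 0.05 and open points did not; CD74 lies at 4.33 and 5.16 against DMSO, and CIITA lies at 0.20 and -0.31.

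Per length, as CPM per kilobase of merged exon, the order of the genes changed with dose. With DMSO CTSS came first at 3.02, then CD74 at 0.923, HLA-DMA at 0.488 and CIITA at 0.208, each apart from the next. The other 5 tested genes lay between 0.0258 and 0.0661 with DMSO. HLA-DRA, the highest of them on average, overlapped HLA-DPA1, HLA-DMB and HLA-DRB1 in its library values and lay just above HLA-DPB1, while HLA-DPA1 at 0.0568 lay above HLA-DPB1, HLA-DMB and HLA-DRB1. At 100 nM CTSS at 21.4 and CD74 at 18.6 did not differ beyond the spread between libraries, HLA-DMA followed at 1.42, and CIITA at 0.239 and HLA-DRB1 at 0.213 overlapped. At 300 nM CD74 came first at 33.0, above CTSS at 9.92 and HLA-DMA at 1.95, while CIITA at 0.168 lay within the library values of HLA-DPB1, HLA-DPA1 and HLA-DRA. Set among 15386 protein-coding genes, the CD74 level per kilobase exceeded that of 33.3% of genes with DMSO, 83.5% at 100 nM and 89.2% at 300 nM. CIITA exceeded 22.7%, 18.7% and 14.9% of genes at the same doses. The ratio of CD74 to CIITA per kilobase was 4.22 and 4.64 in the DMSO libraries, 74.2 and 81.2 in the 100 nM libraries, and 217 and 176 in the 300 nM libraries. That of CD74 to HLA-DMA was 1.71 and 2.08 in the DMSO libraries, 12.4 and 13.7 in the 100 nM libraries, and 15.6 and 18.8 in the 300 nM libraries. The merged exons of CIITA span 20.8 kb, and over its longest coding transcript its level was 0.269, 0.309 and 0.217 CPM per kilobase. The order given above holds for merged exons and in part rests on that choice of length. Over the longest coding transcripts, mean levels at 100 nM were 34.2 CPM per kilobase for CD74 and 22 for CTSS. At 300 nM HLA-DPA1 was at 0.548 on that scale, above CIITA.

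**Figure D4:**
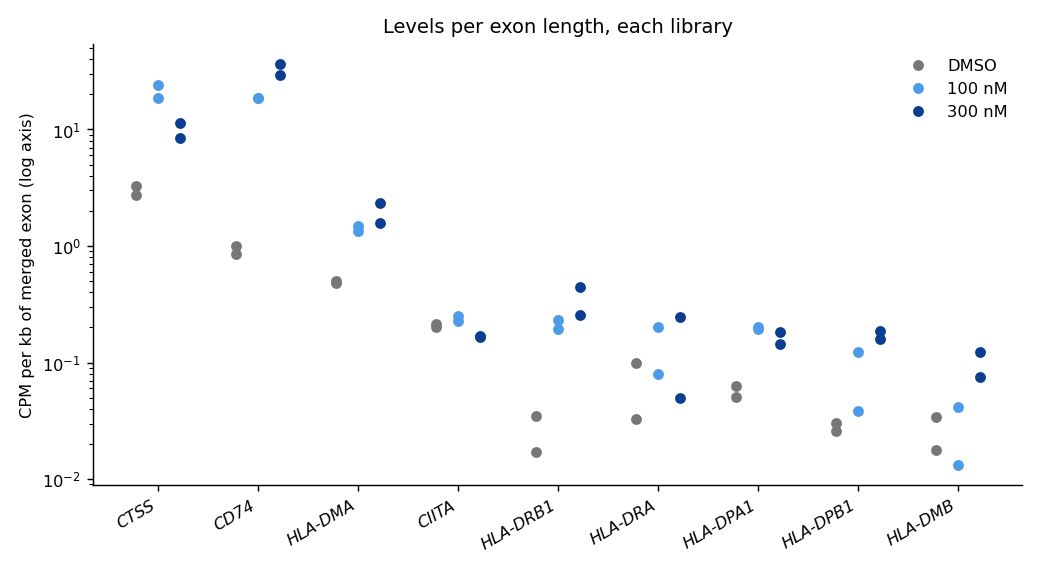
Level in CPM per kilobase of merged exon (y axis, log scale) of the 9 tested genes in each library, coloured by dose. CD74 moves from below CTSS with DMSO to above it at 300 nM, and the chains that bind peptide stay below 1 at every dose.

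Genes of the same route that are not among the 10 were taken as a list of 44, of which 36 passed the filter. At 100 nM 19 of the 36 were called higher and 7 lower, and at 300 nM 22 higher and 11 lower, all against DMSO, where all tested genes had 24.0% higher and 18.7% lower at 100 nM and 34.8% and 31.1% at 300 nM. The median over the 36 was a log2 fold change of 0.56 at 100 nM and of 0.68 at 300 nM, beside 0.025 and 0.046 for all tested genes. At 300 nM against 100 nM 7 were higher and 13 lower, beside 20.0% and 23.4% of all tested genes. The shares of lower calls at each dose against DMSO and that of higher calls at 300 nM against 100 nM were thus close to those of all tested genes. The lower calls at 100 nM numbered 4 and 3 without the first and the second DMSO library and 2 without the first 100 nM library. The higher calls at 300 nM against 100 nM numbered 3 without either 100 nM library, 4 without the first 300 nM library and 11 without the second.

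Among the 6 other class II chains, HLA-DQB1 (beta chain of HLA-DQ) had 0 reads in both DMSO libraries, 45 reads at 100 nM and 59 at 300 nM. Against a floor of 3 reads over the DMSO group it was 15-fold higher at 100 nM and 21.1-fold higher at 300 nM, and it was called at both doses. That floor takes reads as independent, and mates were counted separately, so these folds are not lower limits. HLA-DQB1 passed the filter through its decitabine libraries alone, so it had to differ to be tested. On the deposited log2 matrix the differences were 1.95 and 2.34, both past the threshold in limma. Its partner HLA-DQA1 had 0, 9 and 18 reads at DMSO, 100 nM and 300 nM and HLA-DRB5 had 0, 10 and 8, both untested. HLA-DQA2 and HLA-DQB2 had at most 2 reads in any group. HLA-DOB, the beta chain of HLA-DO, averaged 0.253, 0.437 and 0.543 CPM over the 3 doses, with log2 fold changes of 0.79 at 100 nM (edgeR adjusted p = 0.21) and 1.10 at 300 nM (edgeR adjusted p = 0.051) against DMSO. At 300 nM it was called with DESeq2 size factors in edgeR (1.14, adjusted p = 0.042), with no filter on low counts (edgeR adjusted p = 0.045), on the deposited log2 matrix (limma adjusted p = 0.033) and without the second DMSO library or the first library of either dose. Of the exon bases of HLA-DOB, 32.2% are shared with another annotated gene and were not counted.

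The 7 factors that bind class II promoters were all well expressed with DMSO and went in both directions. RFX5, the DNA-binding subunit of RFX, rose at 100 nM (log2 fold change 0.68, 72.7 CPM, against 45.4 CPM with DMSO) and at 300 nM (0.45, 62.1 CPM). Its partner RFXAP was lower at 300 nM (-1.05, 4.20 CPM, against 8.68 CPM with DMSO) with no call at 100 nM (-0.30), and RFXANK was higher at 300 nM (0.50) with no call at 100 nM (0.19). In RFXANK 23.3% of the exon bases are shared with other annotated genes and were not counted. Of the NF-Y trimer that binds the Y box, NFYA fell (-0.31 and -0.65 at 100 and 300 nM), NFYB fell (-0.40 and -1.03) and NFYC rose (0.41 and 0.72). CREB1, a factor of the X2 box, fell at both doses (-0.37 and -1.20). Several of these rest on the model: with offsets for length and GC content RFXANK turned to -0.31 and -0.47, NFYB to 0.04 and 0.43, and CREB1 to 0.25 and 0.62, the 300 nM call of RFX5 was lost and RFXAP was called lower at 100 nM (-0.44, edgeR adjusted p = 0.0049). At 100 nM the calls of NFYA, NFYB and CREB1 were each lost without the first 100 nM library or without either DMSO library, and those of NFYA and NFYB without the second 100 nM library also. That of NFYA was lost as well with no filter on low counts. The call of NFYC at 100 nM was lost without either DMSO library.

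Interferon-gamma induces CIITA through its receptor, the JAK kinases and IRF1. IFNG had 0 reads in all 6 libraries. Of the 8 tested genes of this route, 5 were higher and 1 lower at 100 nM, and 5 were higher and 3 lower at 300 nM, beside the shares of all tested genes given above (24.0% and 18.7%, 34.8% and 31.1%). SOCS1, a target and inhibitor of JAK signalling, averaged 1.87, 11.5 and 18.2 CPM at DMSO, 100 nM and 300 nM, and rose by log2 fold changes of 2.61 and 3.28. IFNGR2, a receptor chain, averaged 14.6, 59.9 and 66.8 CPM and rose by 2.04 and 2.20. IRF1, a transcription factor at a CIITA promoter, averaged 39.6, 109 and 122 CPM and rose by 1.46 and 1.62. In IRF1 22% of the exon bases are shared with other annotated genes and were not counted. JAK2 fell by 0.65 at 100 nM and by 2.40 at 300 nM on the log2 scale, and its call at 100 nM was lost with offsets for length and GC content and without the first 100 nM library. At 300 nM the offsets moved SOCS1 to 2.44, IFNGR2 to 1.47 and JAK2 to -1.16, all still called.

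Of the 13 genes of antigen processing and class II turnover, 8 were higher at each dose, with 2 lower at 100 nM and 3 lower at 300 nM, beside 24.0% higher and 18.7% lower of all tested genes at 100 nM and 34.8% and 31.1% at 300 nM. CST3 and CSTB, inhibitors of cathepsins, rose by log2 fold changes of 0.73 and 0.94 at 100 nM and 1.27 and 1.09 at 300 nM. The cathepsins CTSH and CTSB rose by 1.05 and 0.86 at 100 nM and 1.46 and 0.87 at 300 nM. MARCH1, a ubiquitin ligase that removes class II molecules from the surface of myeloid and B cells, was singled out after its values were seen. It averaged 2.32, 0.61 and 0.242 CPM and was lower at both doses (-1.92 and -3.23). Its value at 300 nM was -1.79 with the offsets, -2.59 on the deposited log2 matrix and -3.87 without the second 300 nM library, each still called. IFI30, a lysosomal thiol reductase that helps to unfold antigens, was singled out likewise and had 10, 62 and 38 reads, with log2 fold changes of 2.60 and 2.01 (1.27 and 0.94 on the deposited log2 matrix). It too passed the filter through its decitabine libraries alone. Its call at 300 nM was lost with the offsets (1.27) and without either DMSO library or the first 300 nM library, and 40.2% of its exon bases are shared with another annotated gene.

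CD74 at the cell surface is a receptor for MIF, with CD44 and CXCR4 as partners. CD44 averaged 384, 635 and 792 CPM and rose by log2 fold changes of 0.73 and 1.05. CXCR4 had 4, 22 and 50 reads and was called at 300 nM (3.68) and not at 100 nM (2.37), where it was called under a filter of 10 reads in every library of a group. It passed the filter through its decitabine libraries alone. On the deposited log2 matrix its 300 nM difference was 1.54, also past the threshold. MIF was higher at 300 nM (1.44) with no call at 100 nM (0.58). Its 300 nM call was lost with the offsets (0.43), and its counted level of 0.547 to 1.49 CPM misses the reads over the 62.0% of its exon bases that are shared with other genes. Of the costimulatory ligands that accompany class II molecules on antigen-presenting cells, CD80 and CD86 had at most 4 reads in any group. CD40 rose (0.89 and 1.10, the second at 0.51 with the offsets) and ICOSLG fell (-0.92 and -1.77). NLRC5, the paralogue of CIITA that drives MHC class I genes, averaged 41.4, 134 and 128 CPM and rose by 1.70 and 1.63, whereas CIITA itself was not called against DMSO at either dose; the difference between the paralogues was not tested.

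**Figure D5:**
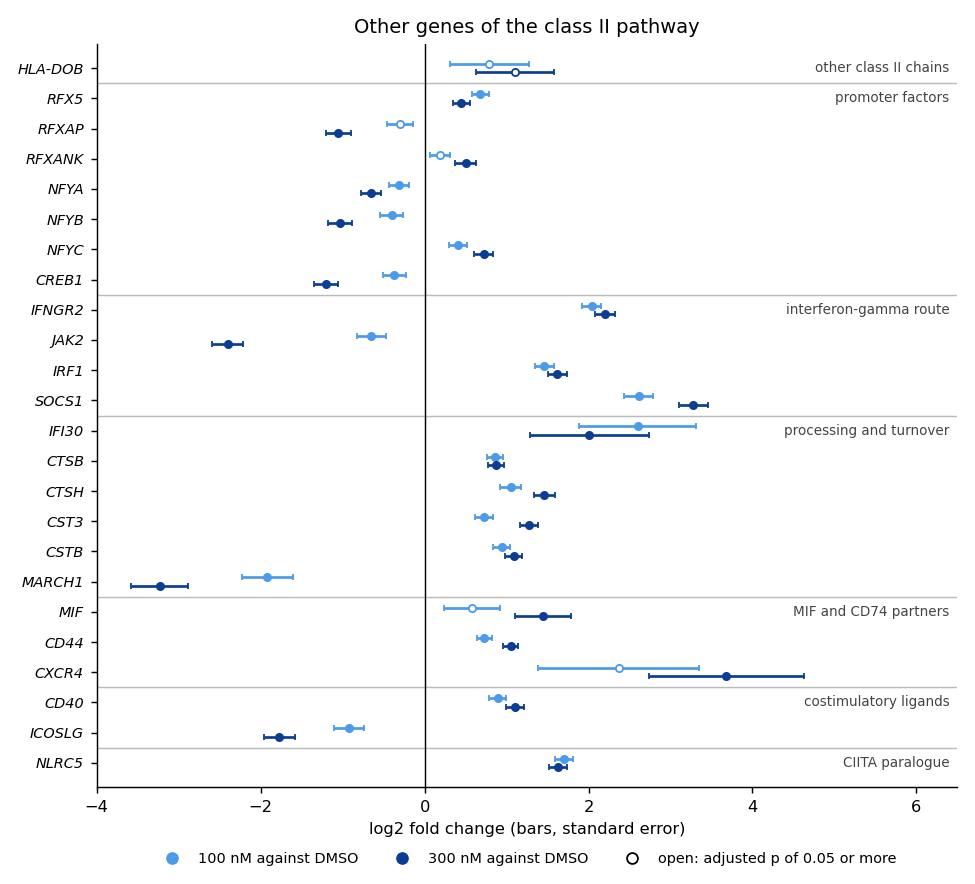
Log2 fold changes (x axis) with standard errors (bars) of the tested pathway genes named in the text, at 100 nM and 300 nM against DMSO, by sublist; HLA-DQB1 is left out because its DMSO libraries hold 0 reads. Filled points passed an adjusted p of 0.05 in edgeR; IFNGR2, SOCS1, IRF1 and NLRC5 lie above 1 at both doses, and MARCH1 lies at -1.92 and -3.23.

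Blood cells carry class II molecules by lineage, and 17 of their markers were read beside these genes. Of 12 that passed the filter, 10 were called higher and 0 lower at 100 nM, and 11 higher and 0 lower at 300 nM, beside 24.0% and 18.7% of all tested genes at 100 nM and 34.8% and 31.1% at 300 nM. Of the 12, 7 had no DMSO library above the filter level, so they entered through their decitabine libraries. Their summed level was 6.93 to 7.22 CPM with DMSO, 22.1 to 22.8 CPM at 100 nM and 21.8 to 26.3 CPM at 300 nM, most of it ITGAX and CSF1R. The myeloid factor SPI1 had 0, 26 and 88 reads at DMSO, 100 nM and 300 nM. The B cell marker MS4A1 had 0 reads in all libraries, and PTPRC, which marks all leukocytes, had 12, 11 and 4 reads. With DMSO 6 of the 17 markers were at 0 reads, and 2 were at 0 reads at each decitabine dose. The part of these genes in the class II values was not tested.

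Over the 6 libraries, the protein-coding genes nearest to CIITA and CD74 were found among 15322 tested genes by the Euclidean distance between log2 CPM profiles, each taken relative to its DMSO mean. Nearest to CIITA were TEP1 (distance 0.10), MDGA1 (0.17), TM2D1 (0.17), ZNF7 (0.18) and AMN1 (0.18). TEP1 was at 31.2 and 32.2 CPM with DMSO, 36.7 and 34.1 CPM at 100 nM, and 25.2 and 26.7 CPM at 300 nM. Nearest to CD74 were C6orf223 (distance 0.27), ACVRL1 (0.36), SPANXD (0.37), GPER1 (0.38) and IL27RA (0.40). C6orf223 was at 0.603 and 0.606 CPM with DMSO, 11.4 and 11.5 CPM at 100 nM, and 24.1 and 21.6 CPM at 300 nM, and IL27RA was at 0.562 and 0.638, 12.5 and 11.5, and 19.2 and 17.9 CPM. No gene of the class II lists could appear here, since the 10 genes and the pathway list were left out of the search.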

How the data were processed

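Per the labels' protocols, a miRNeasy kit was used for total RNA and poly-A enrichment for the libraries. The deposited counts are whole reads per gene, made by the authors with featureCounts 1.5.0-p3 on GENCODE 28, per the file headers, and the submitters' processing notes also name STAR, SAMtools, DESeq2, hg19 and GRCh37. The header commands carry no option for strand, read pairs, multi-mapping reads or overlapping genes. Mates were thus counted separately (70.0% to 74.4% of counts from 1 to 10 were even), and sense and antisense reads were not told apart. Multi-mapping reads and reads on overlapping genes were left out. GENCODE v29 holds 56933 of the 58381 versioned gene identifiers, each with the GRCh38 coordinates that the files give, so coordinates are given as GRCh38. Names were found for 58261 genes. The deposited matrix holds log2 values that the authors scaled for library size, with settings not given in the sources used here, and was used as an alternative.

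Counts were filtered with filterByExpr (minimum count 10, 0.107 CPM) and scaled by TMM, and a group-only fit of all 6 libraries with 3 residual degrees of freedom gave edgeR's quasi-likelihood tests, two-sided, with Benjamini-Hochberg adjustment over 23160 genes (R 4.3.3, edgeR 4.0.16, limma 3.58.1). SE is the log2 fold change divided by the root of F. The biological coefficient of variation was 11.8%. CPM and levels per kilobase are given as library values or means. Counting intervals (95%, exact binomial) and floors of 3 reads take each read as independent and leave out the spread between libraries. Mates were counted separately and reads carry no molecular identifiers, so the intervals are too narrow and the floors too low. The 2 libraries of each group differed beyond counting error (chi-square per gene 8.4, 23.0 and 41.1 at DMSO, 100 nM and 300 nM). The code was tested on simulated counts.

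The genes and lists were chosen with earlier results of these data known. All 10 genes are described; other pathway genes are named by sublist (all of a sublist of 8 or fewer, otherwise the 4 with the smallest adjusted p at 300 nM against DMSO), and 2 were singled out after their values were seen. The alternatives were 8 other settings (DESeq2 1.42.0 size factors and Wald test, filters, the replicate block, only the groups compared, limma on the deposited matrix, offsets for length and GC content fitted with mgcv 1.9.3) and leaving out each of the 6 libraries.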

Additional observations from a re-analysis of the deposited data

How the results depend on the processing

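For the 10 genes, 14 alternatives gave 126 values in each comparison, of which 120 at 100 nM against DMSO, 122 at 300 nM against DMSO and 112 at 300 nM against 100 nM kept their direction and side of the threshold. The values that turned sign were those of HLA-DMB at 100 nM against DMSO (-0.03 on the deposited log2 matrix, -0.11 with length and GC offsets, -0.32 without the first DMSO library, -0.97 without the second 100 nM library, 0.70 at the other end without the first), CIITA at 300 nM against DMSO (0.07 with offsets), HLA-DRA at 300 nM against DMSO (-0.40 without the first 300 nM library, and up to 2.12 without the second DMSO library) and against 100 nM (-0.01 on the matrix, -0.04 with offsets, -0.50 without the first 100 nM library, -1.49 without the first 300 nM library, and up to 0.86 without the second 100 nM library), and HLA-DPA1 at 300 nM against 100 nM (0.17 with offsets). With offsets RFXANK turned to -0.31 and -0.47, NFYB to 0.04 and 0.43 and CREB1 to 0.25 and 0.62 at 100 and 300 nM, and TM2D1 to 0.86, ZNF7 to 0.13 and AMN1 to 0.71 at 300 nM, all against DMSO. The cause was not tested.

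Of the 10 genes, the number lower at 300 nM against 100 nM was 1 under DESeq2 and under offsets, with 2 in the fit reported. Leaving out each library gave 1 to 2 lower and 1 to 2 higher in that comparison, 5 to 6 higher at 100 nM and 6 to 7 higher at 300 nM against DMSO. For the other pathway genes it gave 2 to 7 lower at 100 nM against DMSO and 3 to 11 higher at 300 nM against 100 nM. Over all genes it gave 2883 to 5036 lower at 100 nM against DMSO, and 2896 to 4901 higher at 300 nM against 100 nM. With the replicate block, 5 of the 10 genes were higher at 100 nM, 7 at 300 nM and 3 at 300 nM against 100 nM, where HLA-DMA was called (0.44, edgeR adjusted p = 0.039), and 2 were lower there. Same-numbered libraries deviated together with correlations over 12464 genes of 0.217 (100 nM and DMSO), 0.269 (300 nM and DMSO) and 0.50 (300 nM and 100 nM), but 2 pairs do not show that the numbers pair the samples. Depth limits HLA-DRA, HLA-DRB1, HLA-DPB1, HLA-DMB and HLA-DOA, which rest on at most 54 reads in any library.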
